A study of Drosophila melanogaster with 17 samples.

Results

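miR-14 was followed through the 2 arms of its hairpin, mir-14-5p and mir-14-3p, which were taken by name from the deposited tables. They are 2 of 146 arms, from 96 hairpins, that the mismatch tables list. The hairpin gene mir-14 (FBgn0262447) is annotated on the forward strand of chromosome arm 2R from 9553762 to 9553824 in BDGP6, the assembly that dm6 names. It lies in the single exon of isoform RB of lncRNA:CR43651 (9552844 to 9553940), a noncoding transcript on the same strand, and the exon of isoform RA ends at 9553764. The annotated mature products cover 9553765 to 9553786 for the 5p arm and 9553802 to 9553823 for the 3p arm. In both groups the position tables list 1 start for each arm, hairpin nucleotide 4 for mir-14-5p and 41 for mir-14-3p, which are the first bases of these products.

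miR-14 was found in the fly as a suppressor of cell death set off by Reaper, and flies that lack it have raised stored fat. It also acts on the ecdysone receptor and, in insulin-producing neurosecretory cells, on the sugar-response regulator sugarbabe. A miRNA hairpin is cut by Drosha and Dicer-1 to a duplex, of which the guide strand is kept in an Argonaute protein and the passenger strand is usually discarded. Fly guides mostly enter Ago1, whereas strands loaded in Ago2 receive a 2′-O-methyl group at the 3′ end from Hen1, and that group protects RNA from periodate oxidation.

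The cells were wild-type Schneider 2 (S2) cells, an embryonic Drosophila line, and 17 small RNA libraries were made from them. s4U (4-thiouridine) at 500 µM was given for 0.25, 0.5, 1, 3, 6, 12 or 24 h, the 0 h libraries had none, and iodoacetamide (IAA) then modified the thiol so that a labelled U is read as C. Each RNA was split, 1 portion was oxidised with NaIO4 and the other was not, which gave 8 oxidised and 8 unoxidised libraries, and 1 more library, not oxidised, was made without s4U and IAA. Each group thus has 1 library at each of 8 times, with no replicate at a time, and both libraries of a time come from 1 RNA. All were size-selected and depleted of 2S rRNA.

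Oxidised libraries held 19074278 to 42511487 small RNA reads, of which 7.27% to 13.2% were miRNA, and unoxidised libraries held 19041816 to 24665859, of which 51.3% to 56.4% were miRNA. The oxidised libraries of 0 h and 1 h were the deepest, and results that they move are given with and without them. miRNAs of muscle, neurons, epidermis and late stages (6 markers) summed to 2.55 to 14.1 RPM (reads scaled by the authors to the small RNA total of a library) in oxidised libraries and to 4.46 to 7.85 RPM in unoxidised ones.

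mir-14-3p, the more abundant arm and here called the guide, was the second most abundant arm of unoxidised S2 RNA, and almost all of it was lost on oxidation, whereas the levels of mir-14-5p, the passenger, overlapped between the groups. These are bulk libraries, and both libraries of a time come from the same RNA. Between times, a change in the number of cells that hold an arm and in its amount per cell cannot be told apart. From 0 to 24 h, mir-14-5p had 1993, 738, 841, 1753, 565, 594, 1009.7 and 507 RPM in oxidised libraries. In unoxidised libraries it had 957, 758, 824, 946, 772, 964, 991 and 876 RPM. The oxidised libraries of 0 h and 1 h were highest, and the groups overlapped. Without these 2, the oxidised libraries ranged from 507 to 1009.7 RPM.

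mir-14-3p had 28.7, 540.2, 1013, 719, 528, 264, 691 and 615 RPM in oxidised libraries from 0 to 24 h. In unoxidised libraries it had 53430, 63741, 68013, 61790, 53567, 53615, 50366 and 64699 RPM. The groups did not overlap, and the oxidised 0 h library, with 1218 reads of the arm, was the lowest. Among the listed arms, with copies of 1 mature sequence counted once, mir-14-5p ranked 19 of 93 by its mean in oxidised libraries and 44 of 126 in unoxidised libraries. mir-14-3p ranked 23 of 93 in oxidised libraries and 2 of 126 in unoxidised libraries, behind bantam-3p, a growth and survival miRNA.

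**Figure D1:**
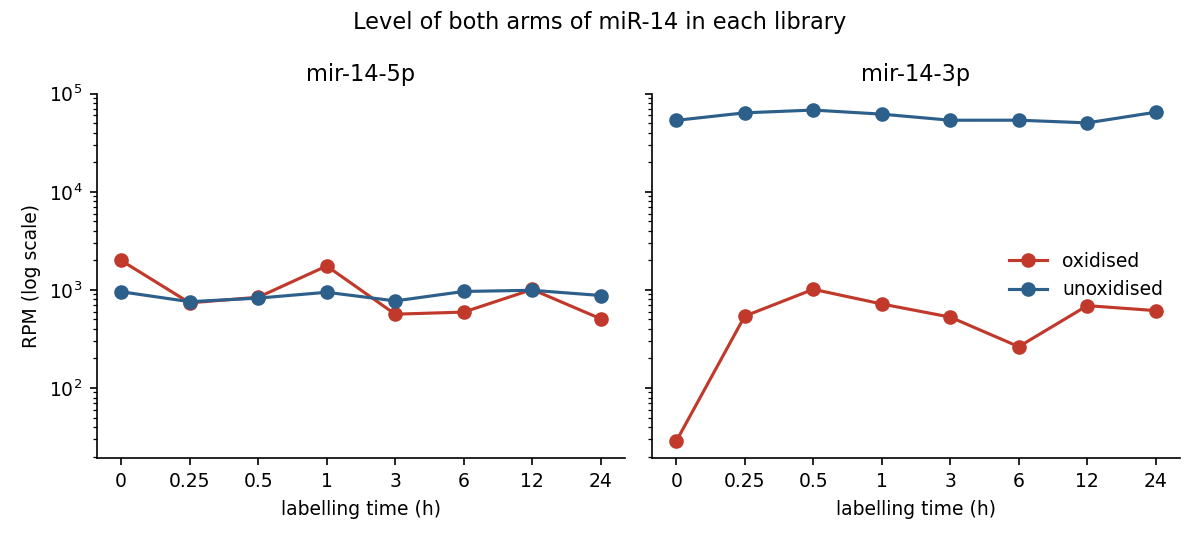
Level of mir-14-5p (left) and mir-14-3p (right) in each oxidised and unoxidised library, in RPM on a log scale, against labelling time in hours. For mir-14-3p every oxidised library (28.7 to 1013 RPM) lies below every unoxidised one (50366 to 68013 RPM), whereas for mir-14-5p the groups overlap.

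Relative to the average arm (edgeR quasi-likelihood test with TMM scaling and labelling time as a block, 80 arms), mir-14-5p rose with oxidation by 2.23 ± 0.29 on the log2 scale (SE, 8 pairs, Benjamini-Hochberg adjusted p = 3.4e-05). Of the 80 arms, 43.8% rose. Scaled instead to the small RNA total, the same arm stood at -0.00078 ± 0.23 (adjusted p = 0.997), and the median of all arms shifted to -2.35, against -0.11 with TMM. The rise is relative to other miRNAs, and the change in the share of all small RNA did not pass the test. mir-14-3p fell by 4.85 ± 0.45 on the log2 scale (edgeR adjusted p = 2.5e-06), 77th of the 80 arms, and stood at -7.03 ± 0.56 per small RNA read, while 42.5% of arms fell in the TMM fit. Without the 0 h and 1 h pairs, the edgeR values were 1.63 ± 0.15 for mir-14-5p and -4.74 ± 0.25 for mir-14-3p. Counted from the position tables, which hold more arms, they were 1.02 ± 0.30 for mir-14-5p and -6.06 ± 0.45 for mir-14-3p.

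The ratio of the 2 arms within a library needs no scaling. mir-14-5p reads exceeded mir-14-3p reads 69.6-fold in the oxidised 0 h library, and the ratio was 1.37, 0.83, 2.44, 1.07, 2.25, 1.46 and 0.825 from 0.25 to 24 h. In unoxidised libraries the ratio was 0.0119 to 0.0197, and mir-14-3p was 50.8 to 84.1 times as abundant as mir-14-5p. The groups did not overlap, and in 6 of 8 oxidised libraries the passenger outnumbered the guide. Averaged over times, log2 of mir-14-5p over mir-14-3p was 1.14 ± 2.10 in oxidised and -6.05 ± 0.27 in unoxidised libraries (SD, n = 8 each). The difference was 7.19 ± 1.97 (SD, higher in 8 of 8 pairs, exact sign-flip permutation, two-sided adjusted p = 0.00985 over 29 hairpins, where 0.00781 is the smallest raw p of 8 pairs). It ranked 4 of 29 hairpins, the median hairpin stood at 4.00, and in 72.4% the less abundant arm gained on the other. Without the 0 h and 1 h pairs the difference was 6.38 (exact permutation adjusted p = 0.0349).

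Neither arm was found to follow labelling time in level. In oxidised libraries the slope per doubling of 1 + h was -0.28 ± 0.16 for mir-14-5p and 0.15 ± 0.23 for mir-14-3p on the log2 scale (edgeR adjusted p = 0.484 and 0.820). In that group 0% of 93 arms passed, while 12 had an unadjusted p under 0.05 and DESeq2 called 1. In unoxidised libraries the slopes were 0.035 ± 0.036 for mir-14-5p and -0.0079 ± 0.040 for mir-14-3p (edgeR adjusted p = 0.507 and 0.921), where 0.794% of 126 arms passed.

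The loss of mir-14-3p on oxidation was larger for its full-length reads, and reads of 18 and 19 nt made up 38.2% to 64.5% of what was left. Reads of 22 nt were 32.3%, 13.1%, 9.71%, 24.7%, 13.4%, 25.2%, 10.8% and 9.40% of mir-14-3p in oxidised libraries from 0 to 24 h. They were 65.5% to 82.4% of the arm in unoxidised libraries, with a median of 78.7%. The groups did not overlap. Reads of 19 nt were 25.0% to 46.8% of the arm in oxidised libraries and 0.342% to 5.52% in unoxidised ones, and 19 nt was the commonest length in every oxidised library but that of 0 h.

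In RPM, 22-nt mir-14-3p reads averaged 78.2 ± 47.3 in oxidised libraries and 45623 ± 6539 in unoxidised ones (SD, n = 8 each). The mean log2 ratio was -9.50 ± 1.19, lower in 8 of 8 pairs (SD, exact sign-flip permutation, adjusted p = 0.0119 over 369 combinations of arm and length, of which 62.3% were lower and 9.76% higher). Among 74 arms with enough 22-nt reads this was the second lowest value, and their median was -2.27. Reads of 20, 21 and 23 nt stood at -7.51, -6.01 and -7.39 on the log2 scale, each lower in 8 of 8 pairs (exact permutation adjusted p = 0.0119 each). For 19 nt the ratio was -1.91 ± 2.35, lower in 6 of 8 pairs, which did not pass (exact permutation adjusted p = 0.0812). Reads of 19 nt had 7.17 to 467 RPM in oxidised libraries and 179 to 2960.0 RPM in unoxidised ones, and the groups overlapped. At 24 h 19-nt reads stood at 286 RPM in the oxidised and 221 RPM in the unoxidised library. Reads of 18 nt did not pass either (-1.88 ± 2.18, exact permutation adjusted p = 0.0627). Without the 0 h and 1 h pairs, the log2 ratios were -9.30 ± 0.31 for 22 nt, -6.99, -5.52 and -6.95 for 20, 21 and 23 nt, and -1.22 ± 2.19 for 19 nt.

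mir-14-5p changed in length in the same direction. Reads of 22 nt were 29.6% to 47.6% of the arm in oxidised libraries, against 69.4% to 76.4% in unoxidised ones, without overlap. On the RPM scale, 19-nt, 20-nt and 23-nt forms of mir-14-5p rose on oxidation by 2.09 ± 0.87, 1.34 ± 0.60 and 1.01 ± 0.62 on the log2 scale (SD, higher in 8 of 8 pairs, exact permutation adjusted p = 0.0119 each). RPM is a share of the small RNA reads of a library, so this is a rise in share and not a measure of amount. The 22-nt form fell by 0.80 ± 0.61 on the log2 scale, lower in 7 of 8 pairs (exact permutation adjusted p = 0.0328), and 18-nt and 21-nt reads did not pass. Without the 0 h and 1 h pairs, the log2 ratios of mir-14-5p were 1.7 ± 0.49, 1.07 ± 0.37 and 0.80 ± 0.53 for 19, 20 and 23 nt and -1.08 ± 0.35 for 22 nt.

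The mean length of mir-14-5p was 20.9 ± 0.18 nt in oxidised and 21.6 ± 0.05 nt in unoxidised libraries (SD, n = 8 each). For mir-14-3p it was 19.9 ± 0.33 nt in oxidised and 21.7 ± 0.10 nt in unoxidised libraries. Both arms were shorter in 8 of 8 pairs, mir-14-5p by 0.68 ± 0.19 nt and mir-14-3p by 1.81 ± 0.40 nt (SD, exact sign-flip permutation, adjusted p = 0.0126 each over 74 arms). Without the 0 h and 1 h pairs the differences were -0.64 nt for mir-14-5p and -1.93 nt for mir-14-3p (exact permutation adjusted p = 0.0497 each). Over reads of 20 to 24 nt alone they were -0.408 nt for mir-14-5p and -0.459 nt for mir-14-3p (exact permutation adjusted p = 0.0113 each). Of the 74 arms, 50% were shorter, with a median difference of -0.18 nt, and mir-14-3p ranked 8th and mir-14-5p 20th from the lowest.

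**Figure D2:**
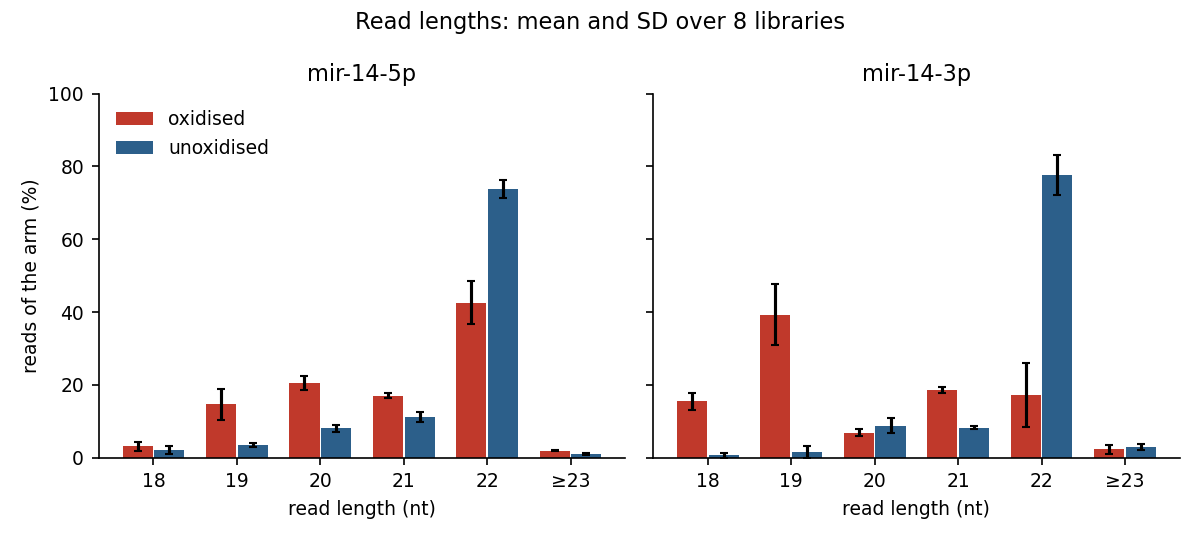
Share of reads of each length (nt, horizontal axis) among all reads of mir-14-5p (left) and mir-14-3p (right), in percent, as the mean of 8 oxidised and 8 unoxidised libraries with SD bars. Reads of 22 nt lead in unoxidised libraries for both arms, and reads of 19 nt lead for mir-14-3p in oxidised libraries.

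Towards the 3′ end, oxidised mir-14-5p reads also carried more U that the hairpin does not encode. Bases were counted over all reads that reach a nucleotide, so changes inside a read and at its end were not told apart. At nucleotide 19, counted from the 5′ end of the arm, U not in the hairpin made up 6.42% of bases in the oxidised 0 h library and 2.23% to 3.17% in the 7 others, against 0.308% to 0.732% in unoxidised libraries. The groups did not overlap. The difference was 2.45 ± 1.36 percentage points (SD, higher in 8 of 8 pairs, exact permutation adjusted p = 0.0269 over 303 combinations of arm and nucleotide, of which 9.57% were higher), and 2.03 ± 0.40 without the 0 h and 1 h pairs. Nucleotides 17, 20 and 21 were also higher in 8 of 8 pairs, by 0.98, 0.69 and 1.34 points (exact permutation adjusted p = 0.0269 each), and by 0.83, 0.58 and 1.26 points without the 0 h and 1 h pairs. At nucleotide 23, beyond the annotated arm, U was 86.8% to 90.7% of bases in oxidised and 60.4% to 75.7% in unoxidised libraries, a difference of 19.1 ± 5.7 points, and of 18.6 ± 5.9 without these pairs. Among arms with a value at the same nucleotide, mir-14-5p had the largest difference at nucleotides 17, 19, 20 and 23, of 46, 50, 45 and 24 arms. For mir-14-3p no rise was called at the 3 nucleotides tested, 18, 19 and 21. At nucleotide 18 its U fell by 0.061 ± 0.029 points (SD, higher in 0 of 8 pairs, exact permutation adjusted p = 0.0269). At nucleotide 19 it had 0% to 0.11% in oxidised and 0.0598% to 0.146% in unoxidised libraries, and its difference of -0.018 ± 0.052 points did not pass (exact permutation adjusted p = 0.552). Nucleotide 23 of mir-14-3p was not tested, because the oxidised 0 h library had only 34 reads there. Its U was 64.7% to 77.6% in oxidised and 37.1% to 68.1% in unoxidised libraries, higher in 7 of 8 pairs.

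The T>C percentage is reads with C over all reads at the U positions of the arm. It measures label per U and not the share of an arm that was made with s4U. mir-14-3p has 12 U in its first 22 nucleotides and mir-14-5p has 2, at nucleotides 18 and 22. In unoxidised RNA the passenger was near its 24 h level of label at the first time sampled, and the guide rose to the last.

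In unoxidised libraries mir-14-5p had T>C at 0.0679%, 1.87%, 2.73%, 2.79%, 2.26%, 1.74%, 2.41% and 2.11% from 0 to 24 h. mir-14-3p had 0.0643%, 0.0881%, 0.132%, 0.191%, 0.429%, 0.629%, 1.34% and 2.03% at the same times. The passenger was high from 0.25 h on, with its top at 1 h, and the guide rose at each step. The library without s4U and IAA had 0.0598% for mir-14-5p and 0.0436% for mir-14-3p. Exact 95% intervals for mir-14-5p were 1.72% to 2.03% at 0.25 h and 1.97% to 2.26% at 24 h, and for mir-14-3p at 24 h 2.02% to 2.03%. These intervals cover counting error only, and reads were not counted as unique molecules. A read enters once at each U it covers. Calls on 1 read were taken as independent, which may make these intervals too narrow and the Fisher exact p-values too low.

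With the 0 h value subtracted, mir-14-5p had reached 88.3% of its 24 h value at 0.25 h, when mir-14-3p stood at 1.22% of its own. Both arms were above 0 h at 0.25 h (one-sided Fisher exact tests, adjusted p = 4.5e-160 and 4.2e-127), as were 66.4% of 116 arms, and at all 7 labelled times, as were 84.8% of the 807 tests of arms and times. These tests compare single libraries. mir-14-3p followed time with Spearman rho 1 and Pearson r 0.991 (exact permutation over 8 libraries, adjusted p = 9.6e-05 and 5e-05 over 112 arms), and r was 0.990 without the 12 h and 24 h libraries. By rank 89.3% of arms rose with time. mir-14-5p did not (rho 0.21 and r 0.16, exact permutation adjusted p = 0.630 and 0.651).

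**Figure D3:**
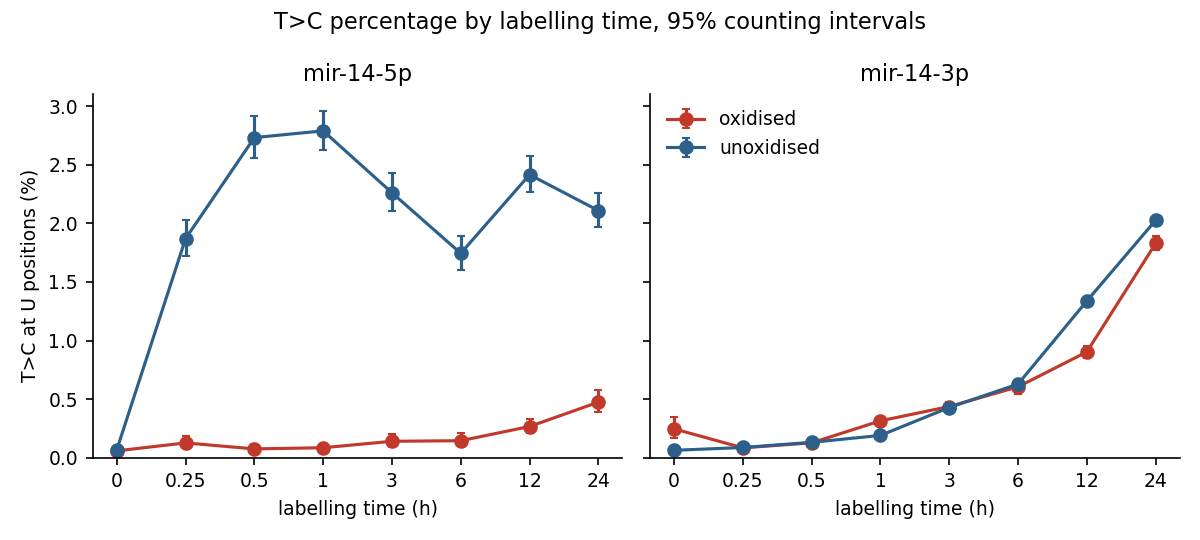
T>C at U positions, in percent with exact 95% counting intervals, of mir-14-5p (left) and mir-14-3p (right) in oxidised and unoxidised libraries against labelling time in hours. Unoxidised mir-14-5p is at 1.87% by 0.25 h and unoxidised mir-14-3p reaches 2.03% at 24 h, whereas oxidised mir-14-5p stays at or below 0.475%.

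Within unoxidised libraries the passenger carried more label than the guide from 0.25 to 12 h. The excess was 21.2-fold at 0.25 h, 14.6-fold by 1 h, 5.27-fold by 3 h and 1.80-fold by 12 h. These folds divide T>C percentages with no 0 h subtraction, which makes the early excess of label look smaller. With 0 h subtracted, mir-14-5p stood at 1.80 percentage points and mir-14-3p at 0.0239 at 0.25 h. The 6 times from 0.25 to 12 h passed (two-sided Fisher exact tests within a library, all with adjusted p of 1.4e-61 or less), as did 58.5% of the 330 tests of hairpins and times. At 24 h mir-14-5p at 2.11% and mir-14-3p at 2.03% did not differ beyond counting error (Fisher exact adjusted p = 0.305), nor did they at 0 h. The 24 h call depended on the positions used. With U positions to nucleotide 18, mir-14-5p was higher (2.60% against 2.08% for mir-14-3p, Fisher exact adjusted p = 5.3e-07), and without the U position of each arm that is highest at 24 h it was lower (1.47% against 1.959% for mir-14-3p, Fisher exact adjusted p = 4.9e-06). The difference of 1.78 percentage points at 0.25 h was the second largest of 43 hairpins, whose median was 0.426 points. Among all arms mir-14-5p ranked 4 of 122 in T>C at 0.25 h and mir-14-3p ranked 72, and at 24 h they ranked 58 and 64 of 119.

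The U positions of an arm did not carry equal label. In unoxidised libraries nucleotide 18 of mir-14-5p had T>C at 2.27% at 0.25 h, 3.57% at 0.5 h and 2.60% at 24 h, and nucleotide 22 had 1.32%, 1.55% and 1.42%. For mir-14-3p the 12 positions ranged from 0.957% at nucleotide 22 to 2.76% at nucleotide 13 at 24 h. Nucleotide 10 had the highest 0 h value, 0.253%, and was the only position of mir-14-3p that stood lower at 0.25 h than at 0 h (0.21%).

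Both measures together give an index of label on 1 scale: the 0 h-subtracted T>C percentage per U times the RPM of the arm. It is not the RPM of reads that carry T>C. At 24 h the authors counted 287350 of 1572710 unoxidised mir-14-3p reads as T>C. Labelled mir-14-5p and labelled mir-14-3p stand below for this index. In unoxidised libraries the index was 13.7, 22, 25.7, 16.9, 16.1, 23.2 and 17.9 RPM for mir-14-5p from 0.25 to 24 h. For mir-14-3p it was 15.2, 46.2, 78.5, 195, 303, 641 and 1269 RPM. The passenger stayed between 13.7 and 25.7 RPM, and the guide was higher at each later time. Labelled mir-14-5p over labelled mir-14-3p was 0.897 at 0.25 h (95% counting interval 0.797 to 1.01). From 0.5 to 24 h it was 0.475, 0.328, 0.0866, 0.0533, 0.0362 and 0.0141. The same ratio over all reads was 0.0119 at 0.25 h and 0.0135 at 24 h. The labelled ratio was thus 75.4 times that of all reads at 0.25 h and 1.04 times at 24 h. The 0.25 h ratio depended on the background and the U positions used: it was 0.483 with the library without s4U and IAA as background, 1.19 with U positions to nucleotide 18 only, and 0.712 without nucleotide 10 of mir-14-3p. All 4 values exceed the ratio over all reads, and no test applies to 1 library a time.

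**Figure D4:**
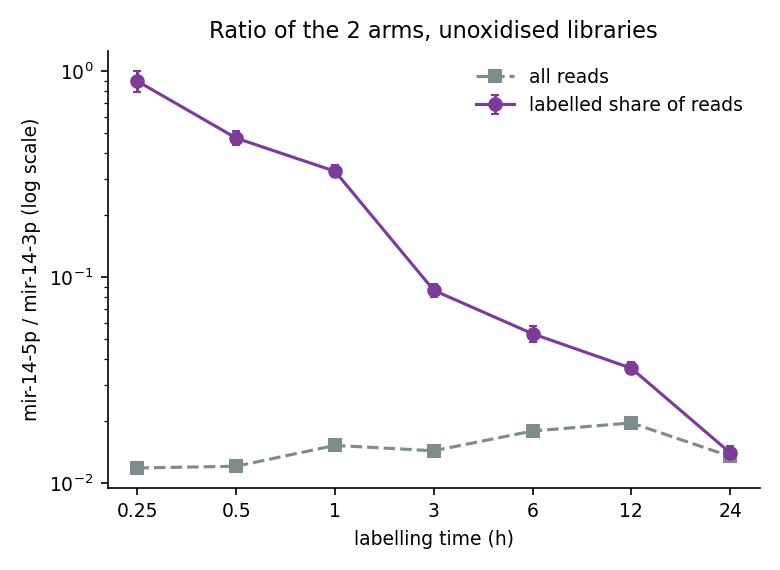
Ratio of mir-14-5p to mir-14-3p in unoxidised libraries, on a log scale, against labelling time in hours. Circles are labelled mir-14-5p over labelled mir-14-3p, as T>C percentage per U times RPM, with 95% counting intervals, and squares are all reads. The key names the circles the labelled share of reads. The labelled ratio is 0.897 at 0.25 h and 0.0141 at 24 h, where it meets the ratio over all reads of 0.0135.

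In unoxidised libraries labelled passenger reads were longer than the average passenger read at every labelled time. At 0.25 h 93.5% of mir-14-5p reads counted as T>C by the authors had 22 nt, against 76.4% of all its reads. At 24 h the shares were 80.3% and 76.0%. The mean length of T>C reads exceeded that of all reads by 0.30 ± 0.02 nt at 0.25 h and 0.10 ± 0.03 nt at 24 h (counting SE). In oxidised libraries, on 14 to 88 T>C reads, the difference for mir-14-5p was -1.63 ± 0.33, -0.89 ± 0.49, -0.61 ± 0.26, -0.71 ± 0.39, 0.45 ± 0.23, 0.017 ± 0.19 and 0.54 ± 0.09 nt from 0.25 to 24 h. The value was below 0 at the first 4 times, though by under 2 SE at 0.5 and 3 h, and the 0 h library stood at -1.27 ± 0.21 nt. For mir-14-3p in unoxidised libraries the difference was -0.08 ± 0.01 nt at 0.25 h and 0.10 ± 0.001 nt at 24 h. With the 0 h share of each length subtracted the value for mir-14-3p at 0.25 h was 0.19 nt, with the opposite sign. The rule by which the authors count a read as T>C was not stated in those sources that were used.

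The passenger copies that oxidation left had less label than unoxidised ones, whereas for the guide the difference depended on the 0 h library. In oxidised libraries mir-14-5p had T>C at 0.0594%, 0.127%, 0.0762%, 0.0861%, 0.141%, 0.146%, 0.267% and 0.475% from 0 to 24 h. mir-14-3p had 0.247%, 0.0851%, 0.128%, 0.315%, 0.437%, 0.606%, 0.903% and 1.83%. Both were highest at 24 h, and the 0 h value of mir-14-3p, on 33 C calls among 13361 at its U positions, was above its values at 0.25 and 0.5 h.

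With 0 h subtracted, the oxidised copies of mir-14-5p had less label than the unoxidised ones by 2.08 ± 0.46 percentage points (SD, lower in 7 of 7 labelled pairs, exact sign-flip permutation, adjusted p = 0.0186 over 69 arms, of which 95.7% were lower). This was the lowest of the 69 arms, whose median was -0.548. For mir-14-3p the difference was -0.258 ± 0.184 points, lower in 7 of 7 pairs and also past the test (exact permutation adjusted p = 0.0186), but it rested on the 0 h library: without subtraction it was -0.0757 (adjusted p = 0.338), and without the 1 h pair as well -0.109 (adjusted p = 0.161).

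In oxidised libraries the guide carried more label than the passenger at the later times. mir-14-5p had less T>C than mir-14-3p in 6 of 8 oxidised libraries (two-sided Fisher exact tests, adjusted p of 6.6e-09 or less), as the less abundant arm did in 40.9% of 220 tests, and the 0.25 h and 0.5 h libraries did not pass. The 6 include the 0 h library, which had no s4U. With 0 h subtracted, mir-14-5p minus mir-14-3p was 0.23, 0.136, -0.042, -0.109, -0.272, -0.449 and -1.17 points from 0.25 to 24 h, positive at the first 2 times. At 24 h mir-14-5p stood at 0.475% and mir-14-3p at 1.83%, the largest deficit of 28 hairpins. Tested as 1 difference, mir-14-5p minus mir-14-3p with 0 h subtracted averaged -0.239 ± 0.469 points in oxidised and 1.58 ± 0.90 points in unoxidised libraries (SD, n = 7 each). It was lower in 7 of 7 pairs, by 1.82 ± 0.54 (exact permutation adjusted p = 0.0273 over 21 hairpins, of which 57.1% were lower). Without subtraction and without the 1 h pair it was -1.87 in 6 of 6 pairs, just short of the threshold (adjusted p = 0.0505, exact permutation).

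Both arms followed time in oxidised libraries (rho 0.929 each, exact permutation adjusted p = 0.00293 over 71 arms, of which 90.1% rose). Pearson r was 0.986 for mir-14-5p and 0.991 for mir-14-3p (exact permutation adjusted p = 0.00059 and 0.00027), and without the 12 h and 24 h libraries it was 0.739 for mir-14-5p and 0.919 for mir-14-3p. For mir-14-5p the trend rested on nucleotide 18, which had 0.659% at 24 h, against 0.074% at nucleotide 22, and without it rho was 0.095 (exact permutation adjusted p = 0.840). At the first time, 0.25 h, mir-14-5p was above its 0 h library (Fisher exact adjusted p = 0.00202) and mir-14-3p was not, where 14.1% of 78 arms passed. Over the 7 labelled times mir-14-5p passed at 6 and mir-14-3p at 4, and 63.7% of the 535 tests of arms and times did. With U positions to nucleotide 18, each arm passed at 5 times.

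The label of oxidised mir-14-3p differed between read lengths. At 24 h 17.8% of its 19-nt reads were counted as T>C (exact 95% interval 17% to 18.6%), against 16% of 19-nt reads in the unoxidised library (15% to 17%). Of 22-nt reads the share was 10.7% in the oxidised library (9.30% to 12.3%) and 19.6% in the unoxidised one (19.5% to 19.7%). In these 2 libraries the oxidised 22-nt share was below the unoxidised one by far more than the intervals, whereas the 19-nt intervals nearly touched. At 12 h both lengths were lower in the oxidised library, with 19-nt shares of 8.73% (8.04% to 9.46%) in the oxidised and 12.1% (11.1% to 13.1%) in the unoxidised library, and 22-nt shares of 4.21% in the oxidised and 12.9% in the unoxidised library. At 3 and 6 h the 19-nt shares were 4.47% and 7.15% in oxidised libraries and 3.58% and 5.46% in unoxidised ones. The order of the 19-nt shares thus differed between times. The oxidised 0 h and 1 h libraries went the other way, with 3.05% (12 of 394 reads) and 7.06% of 22-nt reads, against 0.464% and 1.7% in the unoxidised libraries. In those 2 libraries 60% and 62% of the T>C reads of mir-14-3p had 22 nt, against 5.35% to 17.5% in the 6 other oxidised libraries. Their part in the oxidised T>C values of mir-14-3p was not tested.

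**Figure D5:**
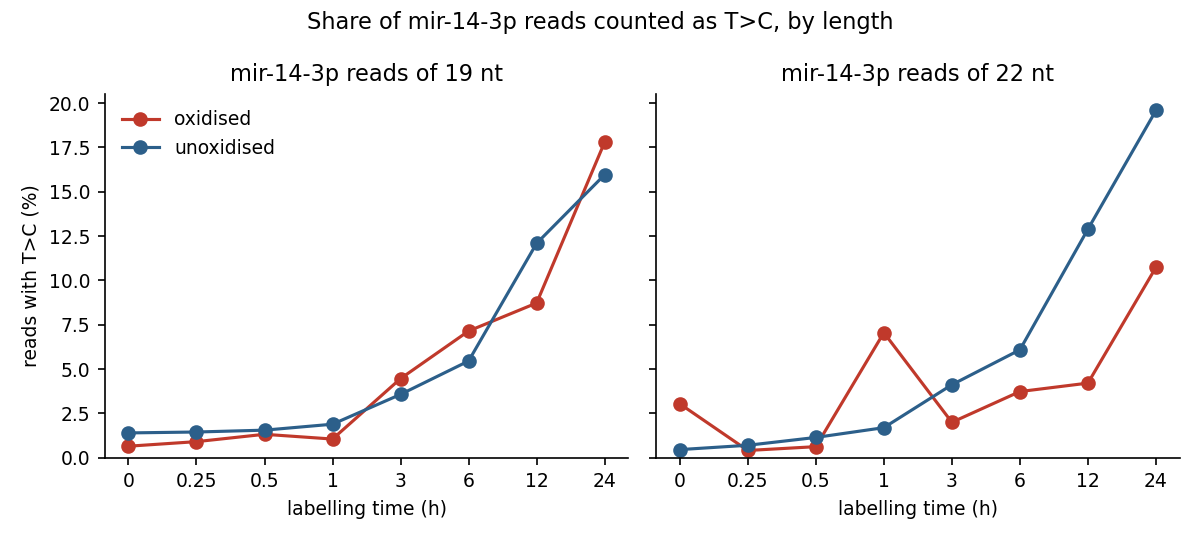
Share of mir-14-3p reads of 19 nt (left) and 22 nt (right) that the authors count as T>C, in percent, in oxidised and unoxidised libraries against labelling time in hours. At 24 h the 19-nt shares are 17.8% and 16% and the 22-nt shares 10.7% and 19.6% in oxidised and unoxidised libraries, and the oxidised 0 h and 1 h libraries stand high for 22 nt.

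The labelling courses most like that of mir-14-3p over the 8 unoxidised libraries were those of mir-11-3p, mir-2a-1-3p and mir-13b-1-3p, with root mean square differences of 0.11, 0.12 and 0.12 on the log2 scale, against a median of 0.88 over 71 arms. Those most like mir-14-5p were mir-980-5p, mir-11-5p and mir-275-5p (0.33, 0.34 and 0.38, against a median of 2.30). mir-980-5p had 1.28% at 0.25 h and 2.28% at 24 h. mir-11-3p, a guide known to restrain cell-death genes in the fly, had 0.083% at 0.25 h and 2.01% at 24 h. Likeness is a description over 8 libraries that share their depth.

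Of 16 listed arms of other miRNAs that restrain fly cell-death genes, 10 were measured after copies of 1 sequence were counted once. Of the 8 tested on oxidation 1 rose and 6 fell relative to the average arm (edgeR), with a median log2 change of -3.30. Of all 80 arms 43.8% rose and 42.5% fell, with a median of -0.11. Both lists of this paragraph hold guides only, whereas the 80 arms hold guides and passengers. Whether the lower median goes with cell death or with being a guide was not tested. bantam-3p fell by 3.48 ± 0.17 (SE, edgeR adjusted p = 1.9e-08), and log2 changes were -5.81 ± 0.42 for mir-308-3p, -0.69 ± 0.15 for mir-11-3p and 2.32 ± 0.23 for mir-263a-5p (edgeR adjusted p = 3.3e-07, 0.0013 and 3.6e-06). The change of mir-14-3p lay between those of bantam-3p and mir-308-3p. Of 5 listed guides tied to fat, sugar or amino acid metabolism, 2 rose and 3 fell, with a median of -0.70. These 5 arms are too few to set apart from all arms, of which 43.8% rose and 42.5% fell. mir-33-5p rose by 1.88 ± 0.22, whereas mir-278-3p, which acts in fly energy balance, fell by 1.33 ± 0.22 (edgeR adjusted p = 1.6e-05 and 0.00018). In 24 h T>C the medians were 2.05% for the cell-death list, 1.99% for the metabolism list and 2.10% over 119 arms, beside 2.11% for mir-14-5p and 2.03% for mir-14-3p.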

How the data were processed

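Per the submitters' processing notes, reads were processed with cutadapt 1.7.1, Bowtie 1.2.2 and Picard on dm6. Their settings were not used here. The mismatch tables are deposited as raw read counts for each base at each position of an arm, and library totals are deposited as read counts too. In the tables of start positions and read lengths the authors give a signal in RPM, relative to the small RNA total, and 100% of its values gave whole reads when rescaled (tolerance 0.001).

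Levels were tested with edgeR 4.0.16 (limma 3.58.1, R 4.3.3; DESeq2 1.42.0 as the alternative), and other tests used Python 3.11.15 with numpy 2.4.6, pandas 2.3.3 and scipy 1.17.1, and matplotlib 3.10.9 drew the plots. Each test ran over all arms or hairpins, with Benjamini-Hochberg adjustment and a threshold of 0.05, and was tested on simulated data. Arms needed 1000 reads over U positions for T>C tests and 100 for mean length. Libraries of a time were paired because the labels say that each RNA was split, although their deviations correlated by only -0.30 to 0.47 over 79 arms. Whether the times are separate cultures is not said in the labels. Fisher exact p-values measure counting error only and take calls at several U of 1 read as independent. The other p-values measure only the spread between these libraries. The tests of U that the hairpin does not encode, of RPM by length and of the arms' difference by oxidation were added after the values were seen. Of arms with 1 mature sequence 1 copy was kept (9 left out, 137 kept). Sequences of the arms are not reported here. Besides both arms of miR-14, arms were named as the 3 nearest in labelling course (pseudocount 0.01%, mean of at least 100 RPM) or as members of the 2 lists. The members and lists were chosen with earlier results of these data known.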

Additional observations from a re-analysis of the deposited data

Results flagged for a closer look

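In the oxidised group 2 values of the 0 h library stood apart from the 7 others. log2 of mir-14-5p over mir-14-3p was 6.12 there, with the next highest value at 1.29. The mean length of mir-14-5p reads was 20.446 nt there, with the next at 20.8 nt. In the unoxidised group the 6 h library had the lowest share of 22-nt reads of mir-14-3p, 65.5%, with the next at 75.2%. Of 14 sets of 8 values examined 3 had such a value, and chance gives about 1 in 20. The difference in T>C between mir-14-5p and mir-14-3p was lower in oxidised than in unoxidised libraries, by -1.82 percentage points (oxidised minus unoxidised).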

How the results depend on the processing

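Of 242 recomputed values 211 were held to be the same. Tested values among them kept their direction and their side of the threshold, and others moved by less than the counting interval. Counts among them stayed within a set fold of the main count. Scaled to all small RNA reads, the oxidation change of mir-14-5p was -0.00078. Counts of arms called for oxidation were 159 of 186 from the position tables and 150 of 172 from reads of 20 to 24 nt. The main test called 69 of 80, so the counts differ with the number of arms tested. For the time slope DESeq2 called 1 oxidised arm, against 0, and 14 unoxidised arms, against 1. Scaling to small RNA reads called 5 and a slope per hour 8, which set mir-14-3p at 0.0019 per hour.

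Leaving out 1 time gave 0 to 13 unoxidised arms, time slopes of -0.064 to 0.016 for mir-14-3p, and rho of -0.18 to 0.36 for unoxidised T>C of mir-14-5p. Without the U position that is highest at 24 h, rho of oxidised mir-14-5p was 0.095, and mir-14-5p was lower than mir-14-3p at 1 unoxidised time, against 0. With U positions to nucleotide 18 it was higher at 7 unoxidised times, against 6. The T>C difference of mir-14-3p was -0.0757 without 0 h subtraction and -0.109 without the 1 h pair as well, where that between the arms was -1.87.

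Labelled mir-14-5p over labelled mir-14-3p was 0.483 at 0.25 h and 0.283 at 1 h with the other background, 1.19, 0.394 and 0.0171 at 0.25, 1 and 24 h with U positions to nucleotide 18, and 0.712 at 0.25 h without nucleotide 10. With the 0 h share subtracted, the length difference of mir-14-3p was 0.19 nt at 0.25 h and 0.108 nt at 24 h. The causes were not tested. Without the replicate block, edgeR gave 2.54 for mir-14-5p and -4.58 for mir-14-3p, and 69 arms called, 36 higher and 33 lower, against 35 and 34 with the block. The calls of both arms of miR-14 held, and of the 80 arms 78 had the same call, 1 lost it and 1 gained it. The settings without the 0 h and 1 h pairs, without the 1 h pair in the T>C tests, without nucleotide 10 and for 20 to 24 nt in the level test were chosen after seeing the data. The 1218 reads of mir-14-3p in the oxidised 0 h library limit its T>C value.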
